A study of Homo sapiens with 6 samples.

Results

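The claudins and tight junction genes described here are 9 of the 29123 gene names on the array: CLDN1, CLDN3, CLDN4, CLDN6, CLDN7, CLDN12, OCLN, TJP1 and F11R. Every probe that carries one of these names was taken, whatever its values, which gives 16 probes. The genes themselves were chosen with earlier results of these data known. CLDN4, CLDN6 and CLDN7 have 1 probe each, OCLN has 3, and the other genes have 2.

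Tight junctions seal the space between neighbouring epithelial cells. Their strands are built of claudins, a family of membrane proteins with 4 passes through the membrane, together with occludin (OCLN), while junctional adhesion molecules such as F11R (JAM-A) lie beside the strands and the scaffold TJP1 (ZO-1) ties them to actin. Claudins differ in the permeability they give a junction, and ovarian carcinomas are known for high levels of CLDN3 and CLDN4. Carcinoma cells that pass from an epithelial to a mesenchymal state often lose claudins and occludin, and repressors of the SNAIL family bind an E-box, the letters CAGGTG, in the promoters of several of these genes.

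RNA was measured on 6 two-colour Agilent Whole Human Genome arrays. SKOV3 and A2780s are established human ovarian adenocarcinoma lines, and the question was how the adaptor protein Hic-5, encoded by TGFB1I1, alters gene expression in them. In SKOV3, stable clones carrying lentiviral shRNA against Hic-5 in pLKO.1-puro, sh-S1 and sh-S2, were each compared on 2 dye-swapped arrays with the RNA of a single Ctrl clone that carried a scramble sequence in the same vector. All 3 had been selected with puromycin. In A2780s, a stable clone with the human Hic-5 gene in pCMV6 (pCMV-Hic-5) was compared on 2 dye-swapped arrays with a Ctrl clone carrying the empty vector, both selected with neomycin. Each RNA comes from 1 clone, so a difference between a clone and its Ctrl holds for those clones. Dye-swapped arrays of the same RNAs count as 1 replicate, which leaves n = 2 clones in SKOV3, both against the same Ctrl RNA, and n = 1 in A2780s.

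The TGFB1I1 probe checks the labels. Its log2 ratio of clone over Ctrl was -0.16 and 0.12 on the arrays of sh-S1 and -0.12 and 0.28 on those of sh-S2, so it was not lower in the RNA of either KD clone (mean 0.03, limma's adjusted p = 0.855), and the directions given for the RNAs labelled as KD rest on their labels alone. In the pCMV-Hic-5 RNA it was higher, at 4.05 and 2.60. On the SKOV3 arrays the Cy5 channel was dim. The median spot stood 373 to 530 intensity units above its local background in Cy3 and 9.52 to 25.5 in Cy5, and 88.8 to 94.5% of probe spots against 43.7 to 63.6% were well above background by the flag of the scanner software. On the A2780s arrays these medians lay between 325 and 568. The SKOV3 and A2780s arrays were on different slides, and an effect of the slide cannot be told apart from one of the cell line. Ratios of dye-swapped arrays correlated across probes, which are not independent replicates, with a Pearson's r of 0.61 (sh-S1), 0.606 (sh-S2) and 0.49 (pCMV-Hic-5). Between sh-S1 and sh-S2 in the same dye, r was higher, at 0.892 in Cy5 and 0.895 in Cy3. Those arrays share the dye and the Ctrl RNA, and the part of either in the agreement of the clones was not tested.

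Some of the probes are shown because the readings of a gene differ between them. Both CLDN1 probes lie on chromosome 3 (hg19). The one at chr3:190027965-190028024 lies in the coding part of the transcript, as does the CLDN4 probe at chr7:73245955-73246014. Set side by side without gaps they overlap by 40 bases, of which 22 are the same. Over all pairs of probes of different claudins, such best matches held 17 to 24 identical bases, in overlaps of 40 to 60. Binding of a probe to another claudin was not tested. The bases that this CLDN1 and CLDN4 pair share are printed in capitals in the following lines.
CLDN1 A_24_P165949: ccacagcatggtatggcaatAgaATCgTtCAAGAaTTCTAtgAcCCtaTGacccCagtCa
CLDN4 A_24_P115183: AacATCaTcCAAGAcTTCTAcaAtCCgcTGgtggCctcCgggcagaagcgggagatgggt
The other CLDN1 probe, A_23_P57784 at chr3:190024001-190024060, carries the largest difference among the members. The following 30 of its 60 bases hold AATAAA, in capitals, the letters of the usual polyadenylation signal.
CLDN1 A_23_P57784: gtaatgggaagaAATAAAagcctacgtgtt

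CLDN1 was the member that fell in SKOV3. Claudin-1 is a sealing claudin of epithelial barriers. In Cy3, the brighter dye, probe A_23_P57784 stood 7720 and 6520 intensity units above local background in the Ctrl RNA on its 2 arrays, 161 in sh-S1 and 187 in sh-S2. Such units are not normalised between arrays. In Cy5 it stood 176 and 174 above background in the Ctrl RNA and 5.64 and 4.83 in the clones, where it was not well above background. The readings of the clones and the Ctrl did not overlap in either dye. The log2 ratios were -2.06 and -3.03 for sh-S1 and -2.37 and -2.85 for sh-S2. Their mean was -2.58 ± 0.05 (SD, n = 2 clones), a 5.96-fold difference with a limma adjusted p of 8.8e-06.

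The size of the CLDN1 difference depended on how the dim channel was treated. The offset of 50 that was added to each background-corrected intensity exceeds the signal of most Cy5 spots and pulls ratios toward 0. With an offset of 10 the mean log2 ratio was -3.60, and on the software's own processed signals it was -5.24. With Cy3 intensities alone it was -5.0, a 32.1-fold difference. CLDN1 stayed past the threshold under all 12 other ways of processing, of which those that left out a clone give a value without a test, with mean log2 ratios from -5.24 to -2.21.

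The second CLDN1 probe, A_24_P165949, lay below the filter on dim probes, since it was well above background on the SKOV3 arrays in Cy3 only. It stood 709 and 734 units above background in the Ctrl RNA, 110 in sh-S1 and 103 in sh-S2. The Cy3 readings were thus also lower in both clones, with a difference of -2.08 on the log2 scale when Cy3 was normalised alone. The ratios of this probe, which bring in its Cy5 readings of -1.35 to 12.1 units, were -0.57, -0.25, -0.47 and -0.14. In A2780s, neither CLDN1 probe was well above background in any RNA.

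**Figure D1:**
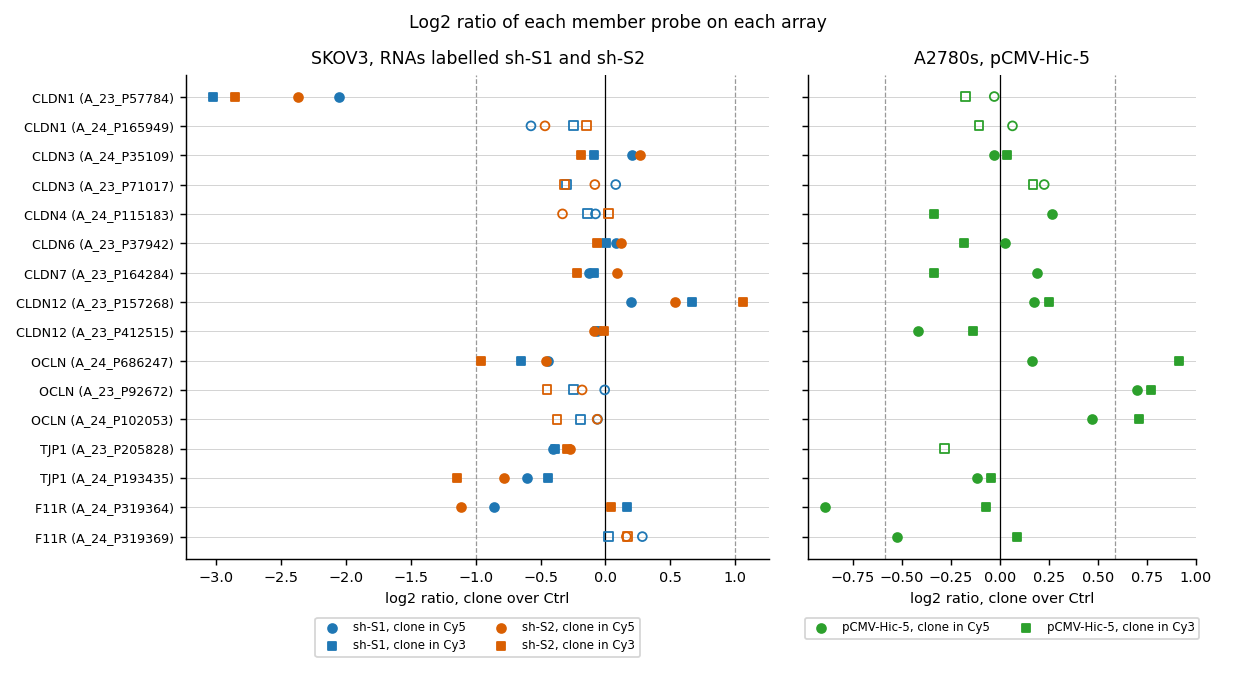
Log2 ratio of clone over Ctrl (x axis) of each of the 16 member probes on each array, with SKOV3 on the left and A2780s on the right. Circles are arrays with the clone in Cy5 and squares those with the dyes exchanged, open symbols are probes below the filter on dim probes or missing on 1 array, and dashed lines mark 2-fold in SKOV3 and 1.5-fold in A2780s. Probe A_23_P57784 of CLDN1 lies between -3.03 and -2.06 on the 4 SKOV3 arrays, apart from all other members.

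Most of the tested markers of ovarian epithelium, from a list of 11 genes, were lower in the same RNAs. Of the 8 tested in SKOV3, 6 fell (PAX8, KRT7, KRT8, KRT18, KRT19 and FOLR1), with mean log2 ratios between -3.58 and -1.31, and none rose. Over all genes tested by their brightest probe, 4.54% were called lower and 3.39% higher. The list was chosen with earlier results of these data known. The other tested markers, WT1 and MUC16, had means of -0.02 and 0.06 and were not called, and MSLN was not tested. The mean log2 Cy3 level of the 8 tested markers was 11.67 and 11.75 in the Ctrl RNA, 9.54 in sh-S1 and 9.38 in sh-S2. E-cadherin (CDH1) and EPCAM, which define epithelial cells, were well above background in Cy3 but in no Cy5 reading and were not tested. In Cy3, the log2 level of CDH1 was 6.95 and 6.87 in the Ctrl RNA against 6.80 and 6.78 in the clones, and that of EPCAM was 8.14 and 7.97 against 7.06 and 7.07. Of 6 leukocyte and endothelial markers, 3 were tested and none was called. The part of these markers in the CLDN1 result was not tested. On bulk RNA, fewer cells with CLDN1 and less CLDN1 RNA per cell cannot be told apart.

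No other member was called in SKOV3. Of the 9 genes, 8 could be tested in SKOV3, and 1 was called lower and none higher by the rule for SKOV3, an adjusted p no greater than 0.05 together with a 2-fold difference. Over all 18941 genes tested by their brightest probe, 4.54% were called lower and 3.39% higher, and over all 24985 probes 4.15% were lower and 2.97% higher. The median log2 ratio of the 8 genes was -0.26, beside a median of 0.00 over all genes tested. The tested probes of CLDN1 and OCLN passed the filter through the Ctrl readings only, the side on which they were higher. Their tests and this median carry that limit.

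CLDN3 and CLDN4 are the claudins of ovarian carcinoma named above. The brighter CLDN3 probe, A_24_P35109 (chr7:73183978-73184037), read a log2 Cy3 level of 8.04 and 8.26 in the Ctrl RNA, 8.32 in sh-S1 and 8.24 in sh-S2, and its log2 ratios of 0.20, -0.09, 0.27 and -0.19 changed sign with the dye. Their mean was 0.05 ± 0.01 (SD, n = 2 clones; limma adjusted p = 0.759). The other CLDN3 probe, A_23_P71017, stood only 50.5 to 246 units above background in Cy3 and was not tested. In Cy3 it read 214 and 246 units in the Ctrl RNA, against 63.0 in sh-S1 and 50.5 in sh-S2, a difference of -1.07 on the log2 scale after normalising Cy3 alone, against 0.19 at the brighter probe. CLDN4 read 175 and 181 units above background in the Ctrl RNA, 104 in sh-S1 and 106 in sh-S2 in Cy3, was not well above background in Cy5 and was not tested. After normalising Cy3 alone, the CLDN4 difference was -0.25 on the log2 scale.

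CLDN6, a claudin of embryonic epithelia that some carcinomas express again, had a mean log2 ratio of 0.03 ± 0.01 (SD, n = 2 clones; limma adjusted p = 0.83) from values of 0.08, 0.00, 0.12 and -0.06. Claudin-7, which also lies along the lateral membrane of epithelial cells, gave -0.12, -0.09, 0.09 and -0.22 for CLDN7, with a mean of -0.09 ± 0.03 (SD, n = 2 clones; limma adjusted p = 0.551). The standard error of both means was 0.09. The log2 Cy3 levels of these genes in the Ctrl and clone RNAs lay within 7.76 and 7.98 for CLDN6 and within 8.20 and 8.41 for CLDN7, and the RNAs overlapped.

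CLDN12 stood on the other side of 0. Claudin-12 lacks the binding motif for PDZ domains, such as those of TJP1, with which most claudins end. Probe A_23_P157268 (chr7:90044941-90045000) read 883 and 833 units above background in the Ctrl RNA in Cy3, 1350 in sh-S1 and 2200 in sh-S2. Its log2 ratios were 0.20 and 0.67 for sh-S1 and 0.54 and 1.06 for sh-S2, higher on 4 of 4 arrays. The mean was 0.62 ± 0.26 (SD, n = 2 clones; limma adjusted p = 0.00794), short of the 2-fold threshold. On the processed signals the mean was 1.22, and with Cy3 alone 1.38, both past the threshold. The second probe, A_23_P412515 (chr7:90042478-90042537), gave -0.07, -0.07, -0.09 and -0.01 (limma's adjusted p = 0.704), so the probes of CLDN12 disagreed.

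OCLN was lower in both clones at all 3 probes, below the fold threshold. Occludin, a membrane protein of the MARVEL family, lines the strands that claudins build. Its brightest probe, A_24_P686247 (chr5:68851861-68851920), read 946 and 853 units above background in the Ctrl RNA in Cy3, 161 in sh-S1 and 319 in sh-S2. The log2 ratios were -0.45, -0.65, -0.46 and -0.96, with a mean of -0.63 ± 0.11 (SD, n = 2 clones; limma adjusted p = 0.00354), a 1.54-fold difference. With an offset of 10 this became -1.14, with Cy3 alone -1.56 and on the processed signals -2.21, each past the 2-fold threshold. The clones were well above background at this probe in Cy3 only. The other probes, A_23_P92672 and A_24_P102053, were not tested in SKOV3, and their mean log2 ratios were -0.22 and -0.17. Of these, A_24_P102053 also matches the transcript of OCLNP1, an OCLN pseudogene, by the accessions listed on the array, so its signal cannot be given to OCLN alone.

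The brighter probes of TJP1 and F11R were well above background in both dyes on all 4 SKOV3 arrays. TJP1 probe A_24_P193435 (chr15:29992527-29992586) gave log2 ratios of -0.61, -0.45, -0.78 and -1.15, a mean of -0.74 ± 0.31 (SD, n = 2 clones; limma adjusted p = 0.00498). In Cy3 alone it read 4670 and 3710 units in the Ctrl RNA, 1730 in sh-S1 and 3760 in sh-S2. The readings of sh-S2 and the Ctrl thus overlapped in that dye, and the mean was -0.42 (limma adjusted p = 0.294). That fit took the 2 Ctrl readings, which are of the same RNA, as separate samples. The second TJP1 probe, A_23_P205828, gave -0.41, -0.39, -0.28 and -0.30, with a mean of -0.34 ± 0.08 (SD, n = 2 clones; limma adjusted p = 0.0339). Neither reached 2-fold. F11R probe A_24_P319364 (chr1:160966033-160966092) gave -0.86 and -1.11 with the clone in Cy5 but 0.17 and 0.04 with the clone in Cy3. Its mean of -0.44 ± 0.14 (SD, n = 2 clones; limma adjusted p = 0.0162) therefore joins values of opposite sign, and the dimmer probe A_24_P319369, not tested, gave 0.02 to 0.28. In Cy3, A_24_P319364 read 4420 and 3700 units in the Ctrl RNA, 2100 in sh-S1 and 1900 in sh-S2. After normalising Cy3 alone, the difference was -0.75 on the log2 scale, against 0.10 at the dimmer probe.

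Over the 10 member probes tested in SKOV3, 6 had an adjusted p no greater than 0.05 in limma, a threshold that 31.7% of all probes passed, and 1 of them also reached 2-fold. These p-values draw on each probe's spread between the clones and, with 5.5 prior degrees of freedom, more heavily on a spread pooled over all probes. The standard error was 0.093 at CLDN1 probe A_23_P57784 (SD 0.05) and 0.126 at TJP1 probe A_24_P193435 (SD 0.308). A p-value here is therefore no measure of how closely the clones agree at that gene. With 1 Ctrl RNA for both clones, the spread of the Ctrl is left out of these fits of ratios.

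**Figure D2:**
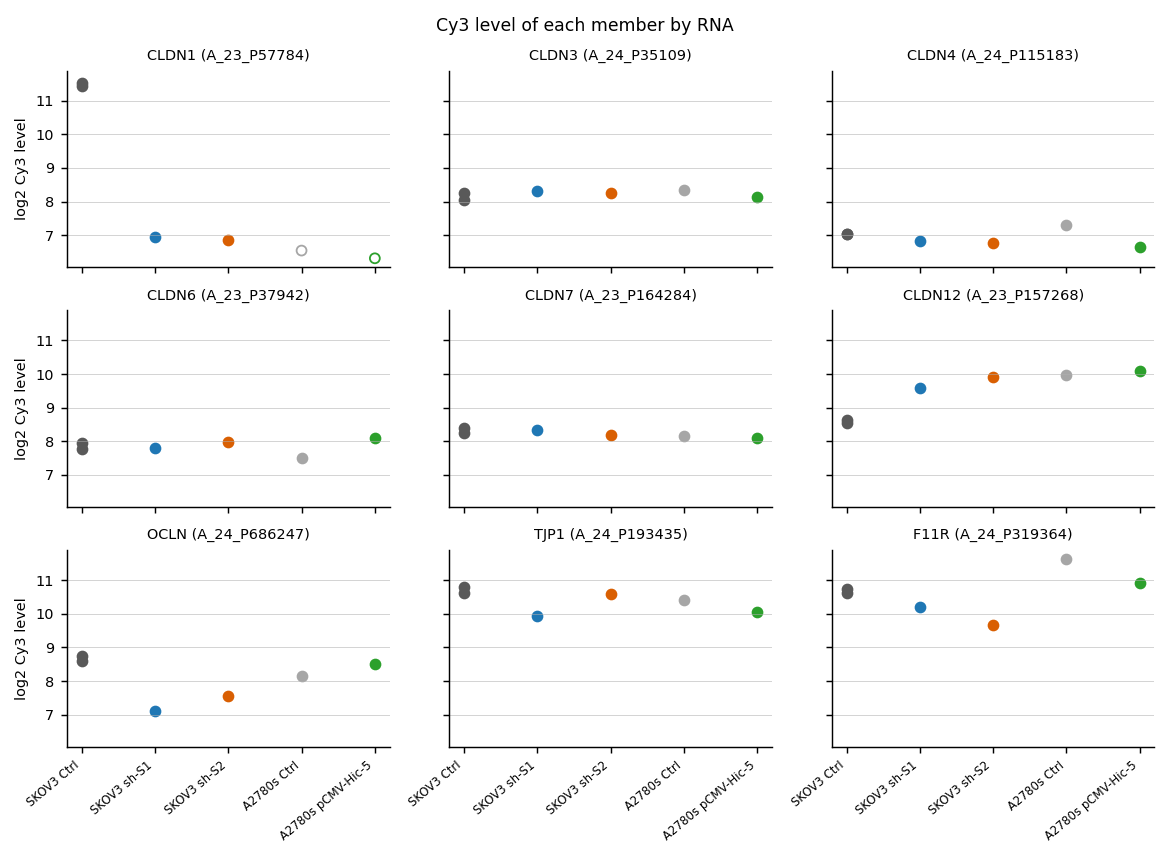
Log2 Cy3 level (y axis) of the brightest probe of each member in the 5 RNAs, 1 point per array, with 2 arrays for the SKOV3 Ctrl. Open circles were not well above background, levels are comparable between RNAs of a cell line but not between probes, and the panels show CLDN1 at 11.43 and 11.53 in the SKOV3 Ctrl against 6.84 and 6.94 in the clones.

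**Figure D3:**
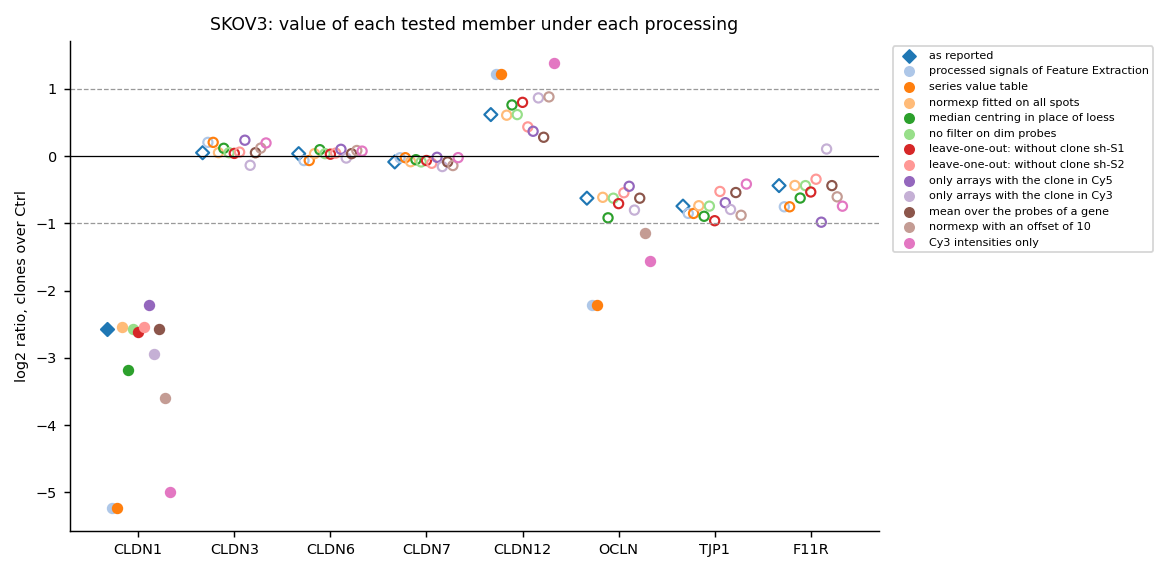
Mean log2 ratio of the SKOV3 clones over Ctrl (y axis) of the 8 tested members as reported (diamonds) and under 12 other ways of processing (circles). Filled symbols passed the calling rule and dashed lines mark 2-fold, so that CLDN1 is filled throughout, OCLN in 4 cases and CLDN12 in 3, and no other member is filled.

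In A2780s, where Hic-5 was raised, no member reached the fold rule by its brightest probe. A gene was called there when the mean of the dye-swapped arrays reached 1.5-fold with 1 direction on both, and no test was possible with 1 clone. Of the 8 genes that could be read, none was called, and their median log2 ratio was -0.05, beside -0.01 over all 22119 genes read. By the brightest probe, 3.43% of all genes were called higher and 1.45% lower, and over all 30553 probes 3.25% were higher and 1.32% lower.

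OCLN came closest. Its 3 probes lay above 0 on both arrays. A_24_P686247, the brightest, gave log2 ratios of 0.16 and 0.91 with a mean of 0.54, a 1.45-fold difference. A_23_P92672 gave 0.70 and 0.77, with a mean of 0.74, and A_24_P102053, shared with OCLNP1, gave 0.47 and 0.71, with a mean of 0.59. Both of these passed the fold rule, as 2 of the 12 member probes read in A2780s. With normexp fitted on all spots neither did, at 0.53 and 0.31, and the brightest probe gave 0.27. The mean OCLN ratios thus had opposite signs in SKOV3 and A2780s at all 3 probes, below 0 in the clones labelled as KD and above 0 in pCMV-Hic-5. In SKOV3, only A_24_P686247 was tested, and it passed the filter through the Ctrl readings alone. TGFB1I1 RNA was not lower in those clones (mean log2 ratio 0.03), and a link of these signs to Hic-5 was not tested. The log2 Cy3 levels in the Ctrl RNA and in pCMV-Hic-5 were 8.16 and 8.52 at A_24_P686247, 7.53 and 8.61 at A_23_P92672 and 7.27 and 7.69 at A_24_P102053. With Cy3 normalised alone, the brightest probe differed by 0.21 and was not called.

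F11R gave log2 ratios of -0.89 when the clone was in Cy5 and -0.07 on the swapped array, with a mean of -0.48, a 1.40-fold difference. TJP1 gave -0.12 and -0.05, with its second probe missing on 1 array through an outlier flag. The mean log2 ratio of CLDN12 was 0.21 at A_23_P157268 and -0.28 at A_23_P412515, so that its probes differed here too. CLDN3, CLDN4, CLDN6 and CLDN7 had means of 0.00, -0.04, -0.08 and -0.07, and all 4 changed sign between the dyes. In Cy3 alone, CLDN4 read 157 units above background in the Ctrl RNA and 75.5 in pCMV-Hic-5, while CLDN6 read 189 and 430, differences of -0.90 and 0.79 on the log2 scale after normalising Cy3 alone. These are 1 reading each.

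The other genes of the tight junction were read from a list of 48. In SKOV3, 33 of the 47 on the array were tested, and 2 rose and 2 fell, with a median log2 ratio of -0.04, beside 3.39% of all genes called higher and 4.54% lower. With median centring in place of loess, none rose and 3 fell, and the calls of YBX3 and PARD6G given here were lost. Over all probes, that setting called 3.31% higher and 6.32% lower, against 2.97% and 4.15% with loess. CGNL1, or paracingulin, a scaffold of the junction, fell, with a mean log2 ratio of -1.28 ± 0.12 (SD, n = 2 clones; adjusted p = 0.000172 in limma) and -0.84, -1.56, -1.04 and -1.69 on the arrays. Its other probe, at -0.13, was not tested. AMOTL2, an angiomotin that binds polarity and Hippo pathway proteins, fell by a mean of -1.28 ± 0.73 (SD, n = 2 clones; limma adjusted p = 0.00579), with 0.18 on 1 array of sh-S1 and -2.61 to -0.98 on the other 3. The mean of sh-S1 alone, -0.76, was short of 2-fold. YBX3 (ZONAB), a factor that TJP1 holds at the junction, rose by 1.02 at its brighter probe and 1.1 at the other, and the mean of sh-S2 alone at the brighter probe was 0.69. Both probes of YBX3 changed with the dye. With the clone in Cy5, sh-S1 and sh-S2 gave 0.56 and -0.085 at the brighter probe and 0.58 and -0.13 at the other. With the clone in Cy3 they gave 2.13 and 1.47, and 2.01 and 1.94. PARD6G, of the PAR polarity complex, rose by 1.08 at its brighter probe, while its other probe gave -0.07. None of the 7 other claudins tested in SKOV3 was called. The CLDN11 probes disagreed, with means of -0.07 at the brightest and 0.58 at A_23_P405088 (limma adjusted p = 0.00396), which was short of 2-fold.

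In A2780s, 44 of the list were read, 3 were called higher and 3 lower, beside 3.43% and 1.45% of all genes, and their median log2 ratio was -0.06. CXADR, the coxsackievirus and adenovirus receptor, had a mean log2 ratio of 0.72, PARD6A of 0.72 and ARHGEF2 (GEF-H1) of 0.60. AMOTL2 gave -0.94, AMOTL1 -0.59 and the multi-PDZ scaffold MPDZ -0.74, with -0.02 at another MPDZ probe. The AMOTL1 value lies at the 1.5-fold threshold, and its other probes read there gave -0.21 and 0.10. No claudin among the 11 others read was called in A2780s.

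**Figure D4:**
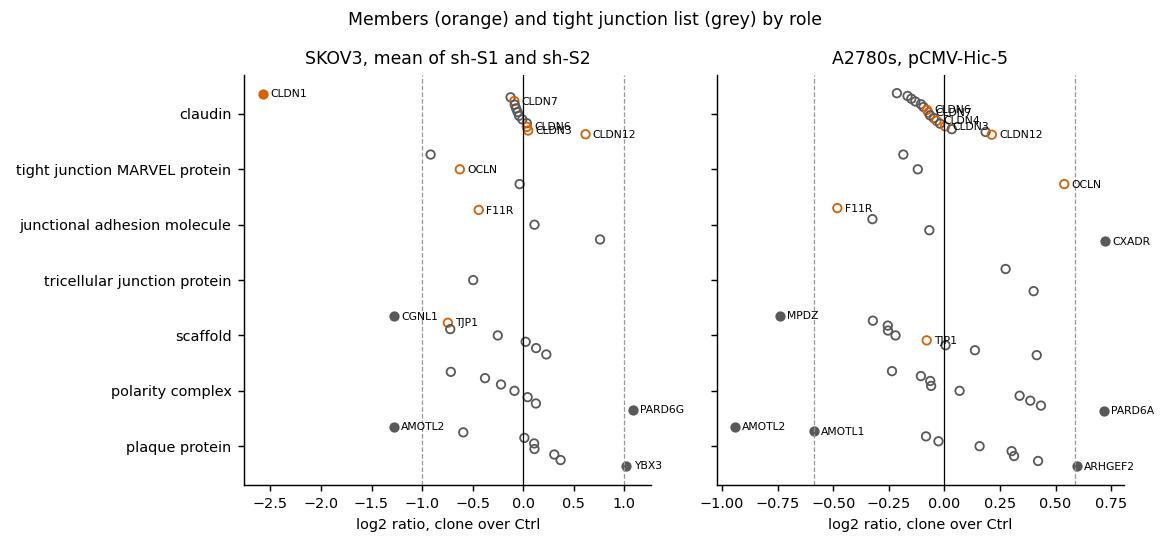
Log2 ratio of clone over Ctrl (x axis) by role in the junction, for the members (orange) and the tight junction list (grey), each at its brightest probe, in SKOV3 (left) and A2780s (right). Filled points passed the calling rule of that cell line and dashed lines mark 2-fold and 1.5-fold. In SKOV3, CLDN1, at -2.58, stands apart from the other claudins, which at these probes lie near 0 except for CLDN12 at 0.62. A second CLDN11 probe, not shown, had a mean of 0.58. The added offset pulls the ratios of dim probes toward 0.

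The promoters of CLDN1 and OCLN are shown for the E-box named above. In the RefSeq annotation (GRCh38.p14), 8 of the 9 members matched an entry, with 13 start sites in all, and F11R was not among them. CAGGTG, or CACCTG as its reverse complement, stood within the 250 bases before the start at 4 of these 13 start sites, in CLDN7, OCLN and TJP1. Over all 35116 promoters of that length, 17.5% hold it. In the following lines the letters stand in capitals where they occur. In OCLN they lie 33 bases before the start, and in CLDN1 they do not occur in this window, at chr3:190322447-190322696 on the minus strand for CLDN1 and chr5:69492297-69492546 on the plus strand for OCLN.
CLDN1: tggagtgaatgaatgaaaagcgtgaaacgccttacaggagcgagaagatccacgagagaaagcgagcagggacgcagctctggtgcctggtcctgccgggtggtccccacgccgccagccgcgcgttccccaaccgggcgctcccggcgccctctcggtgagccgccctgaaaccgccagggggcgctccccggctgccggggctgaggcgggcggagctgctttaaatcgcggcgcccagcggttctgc
OCLN: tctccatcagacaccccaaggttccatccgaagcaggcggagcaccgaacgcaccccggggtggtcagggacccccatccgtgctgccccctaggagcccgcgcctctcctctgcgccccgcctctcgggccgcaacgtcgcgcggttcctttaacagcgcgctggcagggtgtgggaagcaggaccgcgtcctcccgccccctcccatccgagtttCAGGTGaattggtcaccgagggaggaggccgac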

How the data were processed

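RNA of 5 clones was measured on 6 arrays, grouped by the labels. The authors deposited spot intensities in Cy3 and Cy5 from Agilent Feature Extraction (version 10.7.3.1 per the file headers, 8.5.1.1 per the submitters' processing notes) and log10 ratios (Cy5 over Cy3) of its processed intensities. The deposited series values are these log10 ratios, rounded and not turned on the dye-swapped arrays. Probe positions are those of hg19.

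In R 4.3.3 with limma 3.58.1, intensities were background-corrected by normexp with an offset of 50, leaving out 40 spots of 1 A2780s array with a local background over 1000. Ratios were normalised within arrays by loess, outlier spots (121 to 362 per array) and control spots were left out, spots of a probe were averaged, and log2 ratios were turned to read clone over Ctrl. A probe entered if it was measured on every array of the line and well above background in each Ctrl reading or in both readings of a clone. In SKOV3, limma (lmFit, eBayes) tested the dye-swap means of the 2 clones against 0 with Benjamini-Hochberg adjustment over all probes, and a call needed an adjusted p no greater than 0.05 and 2-fold. In A2780s a call needed 1.5-fold and 1 direction on both arrays. Levels were normalised between arrays by Aquantile. A gene's value is that of its brightest tested probe, and all member probes and every called gene of the tight junction list are named. The rules were tested on simulated data. The members and lists were chosen with earlier results of these data known. Precision is limited by signal over background and by the number of arrays. Other background corrections, normalisations, filters, probe rules, single dyes and single clones were tried as alternatives.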

Additional observations from a re-analysis of the deposited data

How the results depend on the processing

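In SKOV3, the 1 member called (CLDN1) became 3 (CLDN1, OCLN and CLDN12) on the processed signals of Feature Extraction, on the series values and with Cy3 intensities only, and 2 (CLDN1 and OCLN) with an offset of 10. The Cy3-only and offset-of-10 settings were chosen after seeing the data. The Cy3-only fit in SKOV3 took 2 readings of the same Ctrl RNA as separate samples, unlike the other fits, so its calls are descriptive. In the tight junction list, the 4 called became 7 on the processed signals, the series values and Cy3 only, and 2 with the clone in Cy5 only, while median centring turned the split of 2 higher and 2 lower into 0 and 3. Without either clone, values with no test, 1 member and 3 genes of the list were past 2-fold. Over all SKOV3 probes, 2.97% were called higher and 4.15% lower as reported. These shares were 7.89% and 9.44% on the processed signals, 7.86% and 9.43% on the series values, and 8.00% and 8.37% with Cy3 only. They were 4.72% and 6.58% with an offset of 10 and 3.31% and 6.32% with median centring. With the clone in Cy5 only they were 3.42% and 4.58%. The sign of CLDN6 turned to -0.068 on the processed signals, -0.067 on the series values, and to -0.03 with the clone in Cy3 only, where CLDN3 was -0.14 and F11R 0.10. In A2780s, the 0 members called became 1 on the processed signals, the series values, with median centring, with the mean over probes and with the clone in Cy3 only (OCLN each time), 1 with the clone in Cy5 only (F11R), and 3 with Cy3 only (CLDN4, CLDN6 and F11R). The 6 genes of the list became 2 with normexp fitted on all spots, 3 with the mean over probes and 10 with Cy3 only. Over all A2780s probes, 3.25% were called higher and 1.32% lower as reported. These shares were 7.94% and 8.84% with Cy3 only, where 1 reading is set against 1 reading, and 5.87% and 4.96% with the clone in Cy5 only. They were 4.47% and 2.29% on the processed signals, and 2.19% and 0.972% with normexp fitted on all spots. On the series values they were 4.46% and 2.28%, with median centring 3.91% and 1.07%, and with the clone in Cy3 only 3.31% and 0.696%. The Cy5 signal on the SKOV3 arrays limits every ratio there. No paired analysis was possible because dye-swapped arrays of the same RNAs are 1 replicate. The cause of these changes was not tested.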
